A study of Mus musculus with 12 samples.

Results

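Expression of 10 genes of fatty acid uptake and mitochondrial beta-oxidation was followed in mouse acute myeloid leukaemia before and after chemotherapy. The genes, Cd36, Cpt1a, Cpt2, Slc25a20, Acadm, Acadl, Acadvl, Hadha, Hadhb and Etfdh, were chosen by name as the import-to-oxidation route of long-chain fatty acids, and all 10 were found among the 24883 entries of each expression table. The leukaemia cells carried the MLL-AF9 fusion, an oncoprotein of human acute leukaemia, as a transgene, and a GFP marker by which they were sorted from bone marrow. All 12 libraries came from such cells, 1 mouse per library: 5 mice received vehicle, and 7 received doxorubicin, which poisons topoisomerase, together with cytarabine, a nucleoside analogue. Of the treated mice, 3 were sampled 3 days after chemotherapy ended (the iCT group) and 4 were sampled 10 days after it ended (the relapse group). The labels give neither the age and strain of the mice, nor the promoter of the transgene, nor whether the leukaemias arose from 1 clone. Levels are FPKM, fragments scaled to transcript length and library total, and differences are on the log2(FPKM + 1) scale.

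Long-chain fatty acids reach the cell interior partly through the scavenger receptor Cd36 and are oxidised in mitochondria. Cpt1a, on the outer membrane, joins the acyl group to carnitine and is inhibited by malonyl-CoA. Slc25a20 exchanges the acylcarnitine across the inner membrane, and Cpt2 returns the acyl group to coenzyme A. The dehydrogenases Acadvl, Acadl and Acadm take very long, long and medium chains, Hadha and Hadhb form the trifunctional protein that carries out the remaining steps on long chains, and Etfdh passes the electrons to ubiquinone. In acute myeloid leukaemia the pathway has been studied as a fuel of cells that survive cytarabine.

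At 3 days after chemotherapy, Cpt1a was the only 1 of 9 tested members that passed the test against vehicle (an adjusted p under 0.05), at 2.10-fold higher, where 9.62% of all tested genes passed. The call was lost in 2 of 23 alternative settings of the fit, and without iCT mouse 1 the limma adjusted p was 0.0496. At 10 days 0 members and 0% of all genes passed against vehicle in the fit of all groups. Cpt1a passed there in 2 of 23 alternative settings of the fit. They were a fit of vehicle and relapse alone (595 of 11019 genes passed) and 1 with less weight on variable libraries (971). The fit of all groups shares 1 estimate of spread per gene, so the iCT spread entered the test of relapse against vehicle. The median SD over tested genes on the log2 scale was 0.37 in iCT, 0.20 in vehicle and 0.16 in relapse. Cpt1a averaged 25.9 FPKM in relapse, against 14.4 in vehicle and 32.8 in iCT (25.4 without iCT mouse 1). Between the treated groups Acadm alone passed, at 1.74-fold higher in relapse than in iCT, where 9.72% of all genes passed. The Acadm call was lost in 7 of 23 alternative settings, among them the omission of each relapse mouse in turn. Cd36 was below 1 FPKM in every library and could not be tested. The remaining members, from the carnitine carrier to the trifunctional protein, did not pass the threshold in any comparison.

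The libraries differed in depth, and 1 of them stood apart. The intervals in the files implied 362268 fragments in iCT mouse 1 and 1226470 to 8362627 in the other libraries. The members' median rested on 20.98 implied fragments in iCT mouse 1, against 67.9 to 645 elsewhere. Results that rest on the iCT group are therefore also given without that mouse. Summed FPKM of 13 myeloid leukaemia and progenitor genes was 11926 to 18223 over the 12 libraries, carried mostly by Elane, Prtn3, Ctsg and Mpo. In iCT 1 of the 13 rose and 3 fell, among them Kit (mean of 25.8 in vehicle and 6.84 FPKM in iCT) and Cd34 (89.7 and 26.9), surface proteins of progenitor cells. The libraries also held markers of other marrow cells, whose levels differed between groups. The 9 osteoclast markers summed to 22.8 to 75.7 FPKM in vehicle, to 990.1, 259.5 and 336.5 in iCT mice 1 to 3, and to 43.5 to 165 in relapse. All 6 osteoclast markers that could be tested rose in iCT, but 3 of them (Atp6v0d2, Dcstamp and Ocstamp) passed the filter only through the iCT mice and so had to differ. The 18 tissue macrophage markers summed to 226 to 250 FPKM in vehicle, 252 to 400.2 in iCT and 152 to 207 in relapse, and of 12 tested 8 rose and 1 fell in iCT. Of the 8, 4 (Axl, Cd5l, Folr2 and Mrc1) likewise passed the filter only with the iCT mice. The macrophage sum mixes markers that moved in opposite directions. Adgre1 averaged 80.3 FPKM in vehicle and 22.3 in iCT, while C1qa averaged 4.87 and 43.6, C1qb 4.64 and 37.5, and C1qc 3.92 and 38.3. The 9 adipocyte markers summed to 0.849 to 5.07 FPKM in vehicle, 8.29 to 55.3 in iCT and 1.23 to 2.69 in relapse. The iCT sums were carried mostly by Adipoq (9.34, 0.747 and 11.1 FPKM in iCT mice 1 to 3) and Fabp4 (0, 7.01 and 38.9). Of these adipocyte genes Cidea, Cidec and Lep were listed at 0 in every library. Erythroid markers summed to 15.2 to 415 FPKM in vehicle, 5.46 to 13.5 in iCT, where 3 of 7 tested entries fell, and 47.4 to 167 in relapse. Among the 13 erythroid entries Hba-a1 and Hba-a2 are each listed at several loci, which count separately in the sums and among the tested. Megakaryocyte and platelet markers summed to 1.80 to 8.24, 11.8 to 26.8 and 2.53 to 5.32 FPKM in vehicle, iCT and relapse. Endothelial markers summed to 9.44 to 13.9, 4.64 to 11.2 and 11.3 to 21.7 FPKM in the same order. Most of each endothelial sum was Pecam1, which averaged 11.1 FPKM in vehicle, 6.04 in iCT and 16.7 in relapse. Pecam1 was the 1 endothelial gene tested and was lower in iCT. The other endothelial markers were below 1 FPKM in every library, except Esam in iCT mouse 1 (2.91). In such bulk samples more cells of a type cannot be told apart from more RNA per cell.

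The members lie at 9 places in the genome (GRCm38), since Hadha and Hadhb adjoin. Hadha (chromosome 5, 30118304 to 30154980, minus strand) and Hadhb (30155253 to 30184593, plus strand) run away from each other, with 272 bases between their starts. Cpt1a lies on chromosome 19 (3323301 to 3385733, plus), Acadm on chromosome 3 (153922353 to 153944643, minus) and Etfdh on chromosome 3 (79603788 to 79628767, minus). Cd36 also lies on chromosome 5 (17781690 to 17888959, minus), Cpt2 on chromosome 4 (107903982 to 107923589, minus) and Slc25a20 on chromosome 9 (108662098 to 108684641, plus). Acadl lies on chromosome 1 (66830839 to 66863309, minus) and Acadvl on chromosome 11 (70010183 to 70015428, minus). Acadvl shares 2119 bases with Dvl2 on the opposite strand. The sources used here do not say whether reads were counted by strand, so reads of that overlap cannot be assigned with certainty.

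The 250 bases before the start are shown for Cpt1a and Acadm, the members that passed a test, for Hadhb, whose window covers most of the gap it shares with Hadha, and for Etfdh, which holds the rarest motif found. They were taken from RefSeq on GRCm38.p6, where all 10 members matched, and positions count from the RefSeq start. Capitals mark motif matches.
Cpt1a (chr19:3323051-3323300, + strand): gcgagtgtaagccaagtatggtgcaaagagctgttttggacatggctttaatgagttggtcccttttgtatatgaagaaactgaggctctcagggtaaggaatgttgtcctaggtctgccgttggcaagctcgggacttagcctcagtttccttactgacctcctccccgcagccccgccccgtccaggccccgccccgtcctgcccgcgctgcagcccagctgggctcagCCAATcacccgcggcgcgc
Acadm (chr3:153944644-153944893, - strand): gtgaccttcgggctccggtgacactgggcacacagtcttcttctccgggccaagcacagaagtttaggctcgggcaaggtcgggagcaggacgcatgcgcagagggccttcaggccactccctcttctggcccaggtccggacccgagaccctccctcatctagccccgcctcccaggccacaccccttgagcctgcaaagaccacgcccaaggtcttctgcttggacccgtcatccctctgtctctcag
Hadhb (chr5:30155003-30155252, + strand): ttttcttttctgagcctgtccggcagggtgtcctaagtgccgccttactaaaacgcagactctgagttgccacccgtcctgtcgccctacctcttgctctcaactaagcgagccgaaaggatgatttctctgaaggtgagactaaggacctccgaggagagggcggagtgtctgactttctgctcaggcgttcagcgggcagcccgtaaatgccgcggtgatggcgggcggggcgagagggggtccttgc
Etfdh (chr3:79628768-79629017, - strand): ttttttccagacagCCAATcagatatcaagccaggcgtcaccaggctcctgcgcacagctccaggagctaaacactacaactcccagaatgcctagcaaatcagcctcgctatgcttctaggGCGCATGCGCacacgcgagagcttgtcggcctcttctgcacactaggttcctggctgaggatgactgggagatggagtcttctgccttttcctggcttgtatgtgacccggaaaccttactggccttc
These 4 windows held 59.6%, 64.0%, 58.8% and 54.4% G and C, where the median of 32851 promoter windows was 52.4%. Windows were searched on both strands for 4 motifs, and no match overlapped another. The PPAR element, a direct repeat of receptor sites spaced by 1 base, was in none of the members' windows and in 0.033% of all windows. The ERR element TCAAGGTCA was likewise in none of them, and in 0.387% of all. The NRF1 motif, the longer capital run of the Etfdh window, was at position -128 from the start of Etfdh and in 0.782% of all windows. The CCAAT box was in the windows of Cpt1a (position -19), Cd36 (-195) and Etfdh (-236), and in 33.85% of all windows. The RefSeq start of Cd36 lies inside the locus given above, with its window at chr5:17835897-17836146.

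In vehicle mice the members spanned a wide range of levels. Hadhb was the highest at 67.9 ± 2.08 FPKM (SD, n = 5) and exceeded 86.8% of the tested genes. Hadha at 46.8 ± 5.01 and Acadl at 43.7 ± 2.86 followed, and their ranges over mice overlapped. Acadvl stood at 32.3 ± 2.53 FPKM, apart from both neighbours in the order. Acadm at 21.7 ± 2.56, Slc25a20 at 17.3 ± 3.39, Etfdh at 15.4 ± 1.53 and Cpt1a at 14.4 ± 1.80 formed a run in which each overlapped the next. Cpt2 at 8.72 ± 1.73 FPKM lay below this run without overlap, and Cd36 at 0.322 ± 0.285 lay below all. By mean level Cpt1a moved from place 8 of 10 in vehicle to place 4 in iCT (place 6 without iCT mouse 1) and place 5 in relapse, where its range overlapped those of its neighbours. The plot of FPKM by mouse shows these levels for each gene.

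**Figure D1:**
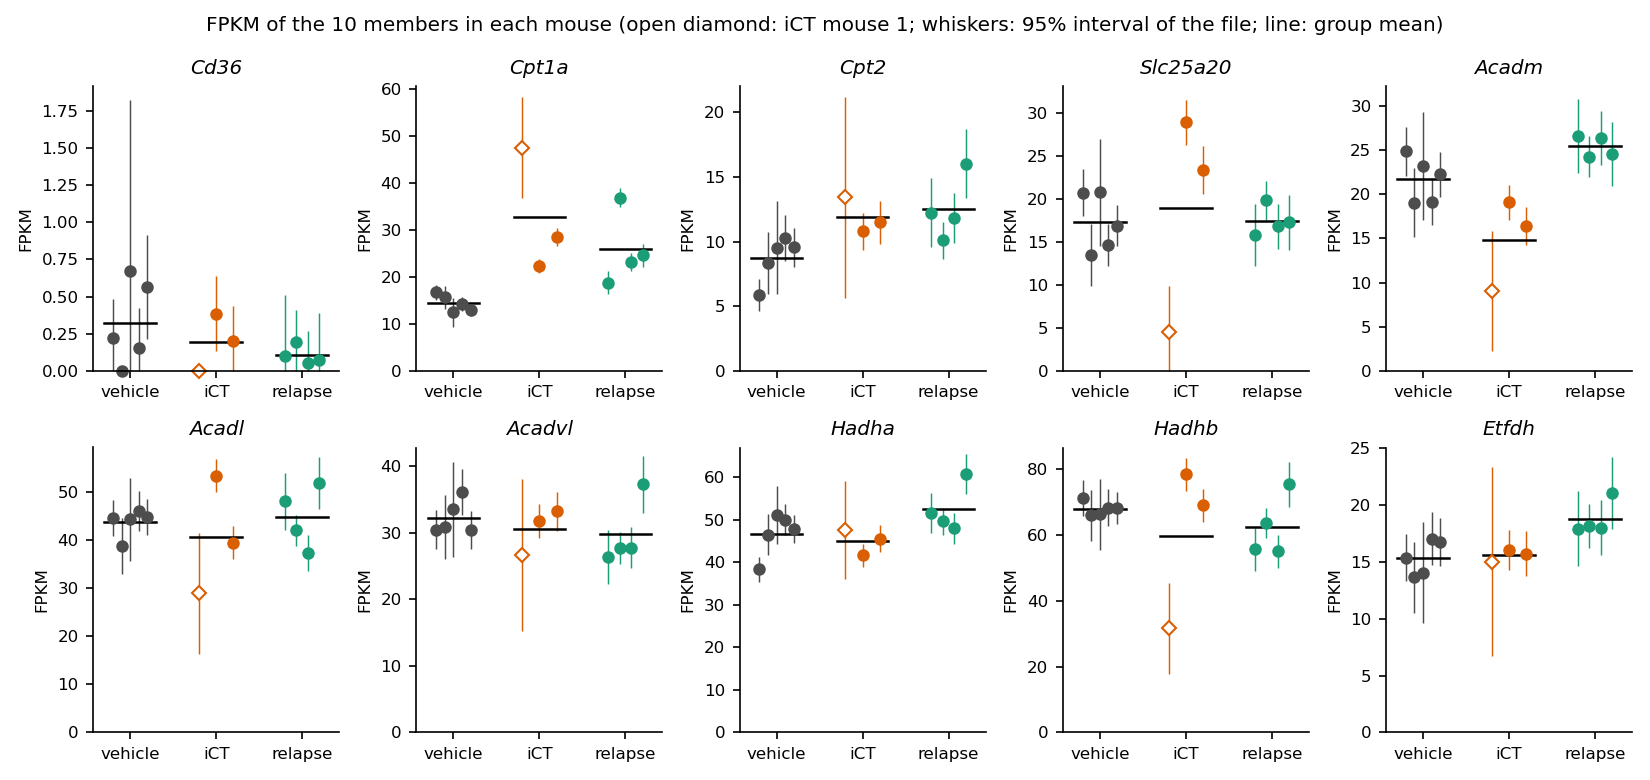
FPKM of the 10 members in each mouse (vertical axis, a separate scale for each gene) by group (horizontal axis). Points are mice with the 95% interval given in the files, horizontal lines are group means and the open diamond is iCT mouse 1, the shallowest library; all iCT and relapse points of Cpt1a lie above the highest vehicle value of 16.7, while all Cd36 points lie below 1.

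Cd36, the uptake receptor, was close to undetected. It was listed at 0.219, 0, 0.675, 0.152 and 0.564 FPKM in vehicle mice 1 to 5, at 0, 0.385 and 0.199 in iCT mice and at 0.0978, 0.197, 0.0516 and 0.0743 in relapse mice. The groups overlapped, and at most 10.3 implied fragments supported any of these values. It failed the filter of 1 FPKM in at least 3 libraries. With no filter its log2 difference was -0.13 in iCT (SE 0.16, adjusted p = 0.666) and -0.23 in relapse (SE 0.15, adjusted p = 0.614) against vehicle. A difference was thus not detectable at this depth.

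Cpt1a, the carnitine acyltransferase that admits long chains to mitochondria, stood at 16.7, 15.7, 12.5, 14.2 and 12.9 FPKM in vehicle mice 1 to 5. In iCT mice it was 47.5, 22.3 and 28.5 FPKM. In relapse mice it was 18.8, 36.9, 23.1 and 24.6 FPKM. Every treated mouse lay above every vehicle mouse, and the treated groups overlapped each other. Against vehicle, Cpt1a rose in iCT by a log2 difference of 1.07 (SE 0.24, limma adjusted p = 0.0178), from 14.4 ± 1.80 (SD, n = 5) to 32.8 ± 13.1 FPKM (n = 3). The highest value came from iCT mouse 1, where it rested on 79.1 implied fragments with an interval of 36.8 to 58.2 FPKM. Without that mouse the mean was 25.4 FPKM and the difference 0.78 (adjusted p = 0.0496). The adjusted p over the omission of each library ranged from 0.00548 to 0.0496. The call was lost with array weights, which give variable libraries less weight (0.92, adjusted p = 0.0750).

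In relapse Cpt1a averaged 25.9 ± 7.77 FPKM (n = 4). Its log2 difference from vehicle was 0.77 (SE 0.22) with an adjusted p of 0.180 in the fit of all groups, so it was not called there. It was called with array weights (0.89, adjusted p = 0.0167) and in a fit of the vehicle and relapse mice alone (0.77, adjusted p = 0.0365). Without relapse mouse 2, the highest of its group, the difference was 0.59. From iCT to relapse the difference was -0.30 (SE 0.25, adjusted p = 0.426), and -0.0084 (adjusted p = 0.985) without iCT mouse 1. That mouse, with the highest Cpt1a in iCT, also had the highest osteoclast sum of its group, and relapse mouse 2, with the highest Cpt1a in relapse, had the lowest of its group, at 43.5 FPKM. Other marker sums ranked the mice differently. Among iCT mice, mouse 3 had the highest macrophage (400.2 FPKM) and adipocyte (55.3) sums. Relapse mouse 2 had the highest adipocyte sum of its group (2.69). The part of other cells in the Cpt1a differences was not tested. The relatives of Cpt1a were scarce: Cpt1b, the muscle form, reached at most 0.546 FPKM and Cpt1c, the neuronal form, at most 0.941 in any library.

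Slc25a20, the carnitine and acylcarnitine carrier, showed no difference past the threshold. It measured 20.8, 13.5, 20.8, 14.7 and 16.9 FPKM in vehicle mice, 4.56, 28.9 and 23.4 in iCT mice and 15.8, 19.8, 16.8 and 17.3 in relapse mice. The lowest and the highest of the 12 values were both in iCT. The low one, in iCT mouse 1, rested on 3 implied fragments with an interval of 0 to 9.83 FPKM. The log2 difference of iCT from vehicle was -0.18 (SE 0.41, adjusted p = 0.794) and became 0.58 (adjusted p = 0.0694) without that mouse. The direction of this difference therefore depended on 1 library.

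Cpt2, the inner carnitine acyltransferase, was 5.88, 8.34, 9.52, 10.3 and 9.57 FPKM in vehicle mice. It was 13.4, 10.8 and 11.5 in iCT mice and 12.2, 10.1, 11.8 and 16.0 in relapse mice. All iCT mice lay above all vehicle mice, although the value of iCT mouse 1 rested on 11.9 implied fragments with an interval of 5.65 to 21.2 FPKM, while relapse mouse 2 fell within the vehicle range. The log2 difference from vehicle was 0.42 in iCT (SE 0.19, adjusted p = 0.147) and 0.48 in relapse (SE 0.17, adjusted p = 0.225). Neither passed the threshold. Without iCT mouse 1 the iCT difference was 0.34 (adjusted p = 0.342).

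Acadm, the medium-chain dehydrogenase, was 24.9, 19.1, 23.2, 19.1 and 22.2 FPKM in vehicle mice. In iCT mice it was 9.05, 19.1 and 16.4 FPKM, and in relapse mice 26.6, 24.3, 26.4 and 24.5. Every relapse mouse lay above every iCT mouse, and relapse overlapped vehicle. The low value of iCT mouse 1 rested on 7 implied fragments with an interval of 2.21 to 15.9 FPKM. Acadm was higher in relapse than in iCT by a log2 difference of 0.80 (SE 0.20, limma adjusted p = 0.0271), from 14.9 ± 5.201 (n = 3) to 25.4 ± 1.21 FPKM (n = 4). Without iCT mouse 1 the difference was 0.50 and still passed (adjusted p = 0.0403). It missed the threshold without each of the relapse mice in turn, at adjusted p of 0.0580 to 0.0655, after median-of-ratios scaling (0.68, adjusted p = 0.0517) and when vehicle was left out of the fit (adjusted p = 0.112).

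Against vehicle, Acadm differed in iCT by -0.57 (SE 0.19, adjusted p = 0.0752), with iCT mouse 2 inside the vehicle range. Without iCT mouse 2 that difference was -0.77 and passed (adjusted p = 0.0159). Without iCT mouse 1 it was -0.27 (adjusted p = 0.223). In relapse the difference from vehicle was 0.23 (SE 0.17, adjusted p = 0.595).

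The longer-chain dehydrogenases did not differ past the threshold. Acadl, which in mice takes long chains, was 44.6, 38.7, 44.3, 46.0 and 44.8 FPKM in vehicle mice, 28.9, 53.4 and 39.5 in iCT and 48.0, 42.0, 37.2 and 51.9 in relapse. All 3 groups overlapped, and the log2 difference was -0.14 in iCT (SE 0.17, adjusted p = 0.584) and 0.03 in relapse (SE 0.15, adjusted p = 0.965). The iCT difference of Acadl was 0.073 (adjusted p = 0.811) without iCT mouse 1. Acadvl, the very long-chain enzyme of the inner membrane, was 30.4, 30.8, 33.5, 36.2 and 30.4 FPKM in vehicle, 26.6, 31.7 and 33.2 in iCT and 26.3, 27.7, 27.8 and 37.2 in relapse. Its groups also overlapped, with differences of -0.08 in iCT (SE 0.13, adjusted p = 0.701) and -0.12 in relapse (SE 0.12, adjusted p = 0.690). For Acadvl it was 0.013 (adjusted p = 0.968) without that mouse. Relapse mouse 4 was the highest of the 12 mice for Acadvl, and the other relapse mice were among the lower values.

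The subunits of the trifunctional protein were the most abundant members. Hadha, which carries the hydratase and dehydrogenase activities, was 38.4, 46.5, 51.1, 50.01 and 47.8 FPKM in vehicle mice, 47.6, 41.7 and 45.6 in iCT and 51.6, 49.7, 48.0 and 60.8 in relapse. Every relapse mouse lay above every iCT mouse, yet the log2 difference of 0.22 (SE 0.12) did not pass (adjusted p = 0.251), nor did the 0.26 without iCT mouse 1 (adjusted p = 0.255). Hadhb, which carries the thiolase activity, was 71.1, 65.9, 66.2, 68.3 and 68.1 FPKM in vehicle, 31.6, 78.3 and 68.9 in iCT and 55.5, 63.5, 55.0 and 75.3 in relapse. The vehicle mice agreed closely, with an SD of 0.04 on the log2 scale against a median of 0.20 over all tested genes. Among iCT mice, mouse 1 was the lowest of all 12 libraries, on 20.98 implied fragments. The iCT difference of Hadhb from vehicle was -0.29 (SE 0.23, adjusted p = 0.408), and 0.11 (adjusted p = 0.626) without that mouse.

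Because Hadha and Hadhb begin on either side of the short stretch printed above, their levels were also set against each other. The ratio of Hadhb to Hadha FPKM was 1.85, 1.42, 1.30, 1.37 and 1.42 in vehicle mice, 0.663, 1.88 and 1.51 in iCT mice and 1.08, 1.28, 1.15 and 1.24 in relapse mice. All relapse ratios were below all vehicle ratios, and the iCT mice held both the lowest and the highest ratio. The ratio was chosen after its values could be seen and was not tested.

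Etfdh, the last electron carrier of the route before ubiquinone, had the smallest SD among iCT mice of the 9 tested members on the log2 scale, at 0.046. It was 15.4, 13.6, 14.1, 17.0 and 16.7 FPKM in vehicle, 15.03, 16.1 and 15.7 in iCT and 17.9, 18.2, 18.0 and 21.04 in relapse. Every relapse mouse lay above every mouse of both other groups. The difference was nevertheless small, with log2 values of 0.28 against vehicle (SE 0.10, adjusted p = 0.255) and 0.25 against iCT (SE 0.12, adjusted p = 0.184), and neither passed. From vehicle to iCT it was 0.02 (SE 0.11, adjusted p = 0.900). In iCT mouse 1 Etfdh rested on 13 implied fragments with an interval of 6.69 to 23.4 FPKM, and without that mouse the differences were 0.23 from iCT to relapse (adjusted p = 0.290) and 0.05 from vehicle to iCT (adjusted p = 0.845).

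Of the 10 members, 9 passed the filter on low values and were tested. In iCT against vehicle 1 was called, higher, where 9.62% of the 11019 genes tested were called (3.31% higher and 6.31% lower). Groups did not overlap for 2 members, Cpt1a and Cpt2, both higher in iCT, where 16.1% of all tested genes did not overlap and 5.49% did so with iCT higher. The median log2 difference of the tested members was -0.08, and that of all tested genes was also -0.08. In relapse against vehicle 0 members were called by limma, where 0% of all genes were called and the lowest adjusted p was 0.173. At an unadjusted p under 0.05 there were 3 members (Cpt1a, Cpt2 and Etfdh), where 14.6% of all genes reached it. Cpt1a and Etfdh did not overlap, both higher in relapse, beside 13.7% of all genes, 9.72% with relapse higher. The members' median was 0.17 and that of all genes 0.06. In relapse against iCT 1 member was called, higher, where 9.72% of all genes were called (6.62% higher and 3.1% lower). Acadm, Hadha and Etfdh did not overlap, where 23.3% of all genes did not, 16.9% with relapse higher. The members' median was 0.17, close to the 0.16 of all genes. That general shift was 0.06 with median-of-ratios scaling and 0.05 with quantile normalization. The split of all called genes moved from 729 higher and 342 lower to 490 and 514, and to 472 and 434. In iCT against vehicle these scalings moved the split from 365 higher and 695 lower to 496 and 615, and to 495 and 607. Both comparisons with vehicle share the same 5 vehicle mice, and both comparisons with iCT share its 3 mice, so their values are not independent. Without iCT mouse 1, the counts of members called stayed at 1, 0 and 1.

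**Figure D2:**
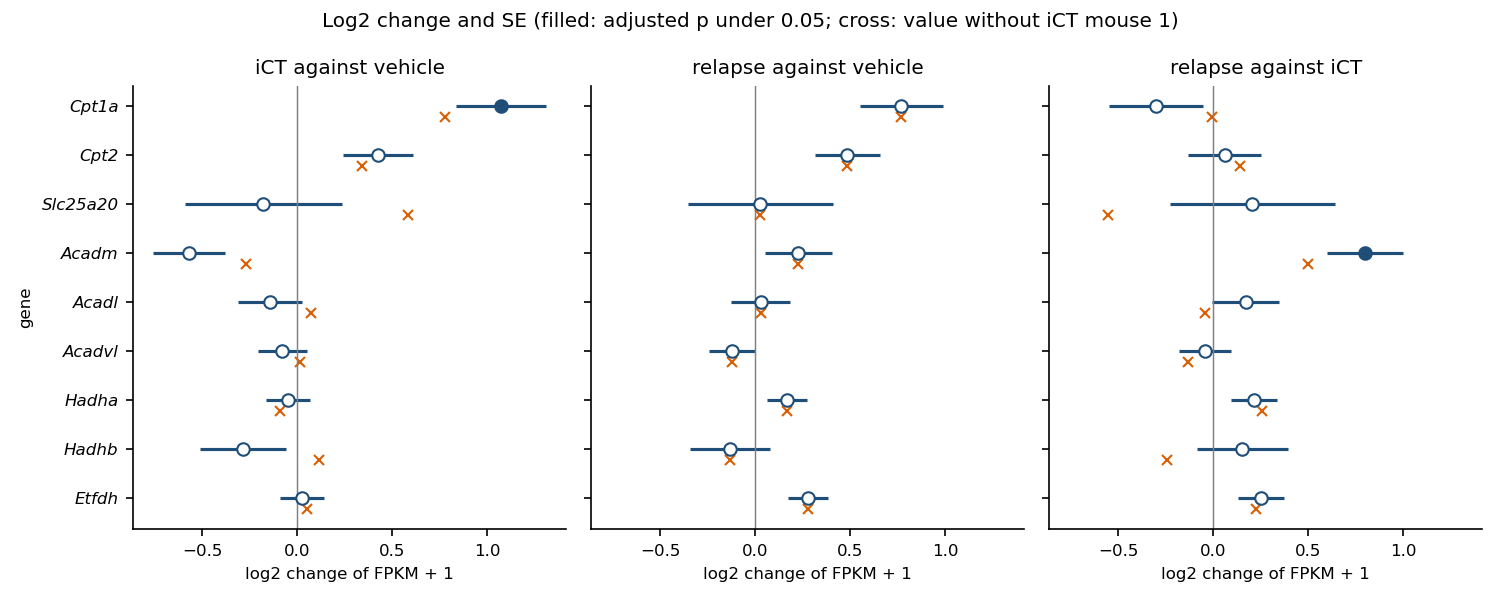
Log2 difference of FPKM + 1 (horizontal axis) with its standard error for the 9 tested members (vertical axis) in the 3 comparisons. Filled points passed an adjusted p of 0.05 and orange crosses are values without iCT mouse 1; Cpt1a in iCT against vehicle (1.07) and Acadm in relapse against iCT (0.80) are the filled points, and the cross of Slc25a20 lies on the other side of 0.

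The wider pathway was described with 7 lists of genes around the members, given here as counts with no test of the list. No gene of any list passed in relapse against vehicle in the fit of all groups. For reading the counts in iCT against vehicle, 3.31% of all tested genes were called higher and 6.31% lower, with a median log2 difference of -0.08. In relapse against iCT 6.62% were called higher and 3.1% lower, with a median of 0.16. Of 20 genes of uptake, binding and activation, 10 were tested and 0 called by limma in any comparison, with 3 at an unadjusted p under 0.05 in iCT against vehicle, a level that 29.8% of all tested genes reached. Their median in iCT was -0.05. The smallest p values belonged to Slc27a1, a fatty acid transporter, at 0.911 ± 0.656 FPKM in vehicle and 2.18 ± 0.616 in iCT (log2 difference 0.78, adjusted p = 0.0893), and to Fabp5, a binding protein, at 125 ± 16.4 and 84.5 ± 34.2 (-0.64, adjusted p = 0.103). Slc27a1 passed without vehicle mouse 4 (0.95, adjusted p = 0.0458) and without iCT mouse 2 (0.93, adjusted p = 0.0499), and was 0.64 (adjusted p = 0.236) without iCT mouse 1. Fabp5 passed without iCT mouse 2 (-0.84, adjusted p = 0.0377) and was -0.25 (adjusted p = 0.383) without iCT mouse 1. Of 7 genes of carnitine supply and transfer 5 were tested and 0 called by limma, with 2 at an unadjusted p under 0.05 in iCT. These were Crot, the peroxisomal octanoyltransferase (-0.52, adjusted p = 0.120, and -0.72 with adjusted p = 0.0332 without iCT mouse 2), and Crat, the acetyltransferase (0.46, adjusted p = 0.135). Crot was -0.25 (adjusted p = 0.438) and Crat 0.24 (adjusted p = 0.446) without iCT mouse 1.

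All 21 other enzymes of mitochondrial beta-oxidation were tested, and in iCT 1 rose and 2 fell, with a list median of -0.15. Acaa2, the thiolase of medium chains, was 67.0, 67.8, 54.0, 56.6 and 56.9 FPKM in vehicle, 101.9, 82.7 and 95.1 in iCT and 55.5, 74.9, 64.4 and 50.9 in relapse. All iCT mice lay above all others. Acaa2 rose in iCT by 0.62 (SE 0.13, adjusted p = 0.0164), and by 0.55 (adjusted p = 0.0490) without iCT mouse 1, but the call was lost with array weights (adjusted p = 0.0590) and with the replicate block (adjusted p = 0.119). Acaa2 was lower in relapse than in iCT by a difference of -0.60 (SE 0.14, adjusted p = 0.0203), which missed the threshold without iCT mouse 1 (-0.54, adjusted p = 0.0551), relapse mouse 1 (-0.56, adjusted p = 0.0563) or relapse mouse 4 (-0.52, adjusted p = 0.0583). That call was also lost with array weights (adjusted p = 0.104), without vehicle in the fit (0.0814) and with the block (0.102). Acat1, the acetoacetyl-CoA thiolase, fell from 53.7 ± 3.14 to 37.4 ± 8.04 FPKM (-0.53, adjusted p = 0.0275), a call lost without vehicle mouse 2, 4 or 5 or iCT mouse 1 (adjusted p of 0.0514 to 0.0745; -0.36 without iCT mouse 1). Decr1, a reductase for unsaturated chains, fell from 12.6 ± 1.63 to 8.07 ± 1.87 FPKM (-0.60, adjusted p = 0.0460). The Decr1 call was lost in 17 of 23 alternative settings, among them the omission of iCT mouse 1 (-0.51, adjusted p = 0.118).

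In the peroxisome, which shortens very long chains, 13 of 15 genes were tested, and in iCT 0 rose and 2 fell, with a median of -0.35. Acox3, an oxidase of branched chains, was 8.48, 9.05, 8.95, 11.4 and 10.8 FPKM in vehicle, 3.84, 4.21 and 6.98 in iCT and 10.2, 11.4, 11.6 and 11.2 in relapse. The iCT mice lay below all others. Its fall in iCT was -0.86 (SE 0.17, adjusted p = 0.0112), and it was higher in relapse than in iCT by 1.04 (SE 0.18, adjusted p = 0.00573). Both calls held without each library in turn, at adjusted p up to 0.0318 and 0.0211, with differences of -0.73 and 0.91 without iCT mouse 1. The fall of Acox3 in iCT missed the threshold when relapse was left out of the fit (adjusted p = 0.0594) and with the replicate block (adjusted p = 0.0849). Abcd2, a transporter of very long chains, fell from 12.03 ± 1.88 to 7.33 ± 1.34 FPKM (-0.65, adjusted p = 0.0270), a call lost without vehicle mouse 1 or 5 or iCT mouse 1 (adjusted p of 0.0502 to 0.0719; -0.51 without iCT mouse 1). Relapse against iCT was the other way at 0.57 (adjusted p = 0.0505).

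Of 17 genes of malonyl-CoA control and transcriptional regulation, 11 were tested and 0 were called in iCT against vehicle, with 3 at an unadjusted p under 0.05. In relapse against iCT, where 6.62% of all tested genes were called higher, 3 were called higher. These were Acaca, which makes the malonyl-CoA that inhibits Cpt1a (6.90 ± 1.11 to 11.7 ± 2.52 FPKM, 0.68, adjusted p = 0.0454), the retinoid receptor Rxrb (34.9 ± 4.001 to 51.9 ± 4.75, 0.56, adjusted p = 0.0133) and the mitochondrial deacetylase Sirt3 (14.5 ± 2.28 to 22.2 ± 3.69, 0.58, adjusted p = 0.0400). The calls were lost in 16 of 23 settings for Acaca and 14 of 23 for Sirt3. Without iCT mouse 1 Acaca had an adjusted p of 0.109 and Sirt3 of 0.105, and both missed the threshold after median-of-ratios scaling (adjusted p = 0.0612 and 0.0893). Rxrb passed without each library in turn (adjusted p up to 0.0402; 0.47 without iCT mouse 1) and missed the threshold when vehicle was left out of the fit (adjusted p = 0.0655) and with the replicate block (0.0788). The receptor Ppara and the coactivators Ppargc1a and Ppargc1b were at most 0.0836 FPKM in any library, and Ppard, the widely expressed receptor of that family, was 4.22 ± 0.743 FPKM in vehicle. Pparg, of the same family, was 0, 1.47 and 1.95 FPKM in iCT mice 1 to 3 and at most 0.526 in any other library. It failed the filter and was not tested.

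Of 10 PPAR targets outside oxidation 4 were tested. Plin2, which coats lipid droplets, was 79.8, 91.7, 76.7, 79.3 and 72.2 FPKM in vehicle, 142.7, 101.7 and 108 in iCT and 86.9, 115.2, 95.8 and 83.4 in relapse. It rose in iCT by 0.54 (SE 0.13, adjusted p = 0.0278), a call lost without vehicle mouse 3, 4 or 5 or iCT mouse 1 (adjusted p of 0.0516 to 0.0943; 0.39 without iCT mouse 1). Ucp2, a mitochondrial carrier, was higher in relapse than in iCT (874.5 ± 145 to 1187 ± 44.8 FPKM, 0.45, adjusted p = 0.0494) and lost that call in 19 of 23 settings, among them without iCT mouse 1 (0.43, adjusted p = 0.113). With array weights Ucp2 also passed in relapse against vehicle (0.35, adjusted p = 0.0293). Pdk4, a further PPAR target, was at most 0.739 FPKM in any library.

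Of 13 genes of lipolysis and lipid droplets 10 were tested, and in iCT 2 rose, of which 1 (Lpl) passed the filter only through the iCT mice. Lpl, the lipase that releases fatty acids from lipoproteins, was 0.362, 0.71, 0.491, 1.12 and 0.629 FPKM in vehicle, 4.37, 1.61 and 5.42 in iCT and 0.405, 0.463, 0.219 and 0.56 in relapse. It reached the filter's 1 FPKM only in the 3 iCT mice and vehicle mouse 4, so it was tested because it was high in iCT. The p values of Lpl therefore lend no support beyond the levels just given. Its difference was 1.45 in iCT against vehicle (SE 0.27, adjusted p = 0.00798) and -1.67 in relapse against iCT (SE 0.28, adjusted p = 0.00537). Lpl had 1.32 (adjusted p = 0.0260) and -1.54 (adjusted p = 0.0149) without iCT mouse 1, and with the replicate block the iCT call was lost (adjusted p = 0.0606). Macrophages and adipocytes are known to make Lpl, and the part of these cells, whose marker sums are given above, was not tested. Dgat1, an enzyme of triglyceride synthesis, rose from 29.7 ± 5.17 to 43.6 ± 7.85 FPKM (0.54, adjusted p = 0.0461) and lost that call in 16 of 23 settings (0.40, adjusted p = 0.151 without iCT mouse 1). G0s2, an inhibitor of lipolysis, was lower in relapse than in iCT (47.2 ± 27.3 to 20.5 ± 8.13 FPKM, -1.09, adjusted p = 0.0492) and lost that call in 18 of 23, with -0.66 (adjusted p = 0.134) without iCT mouse 1.

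**Figure D3:**
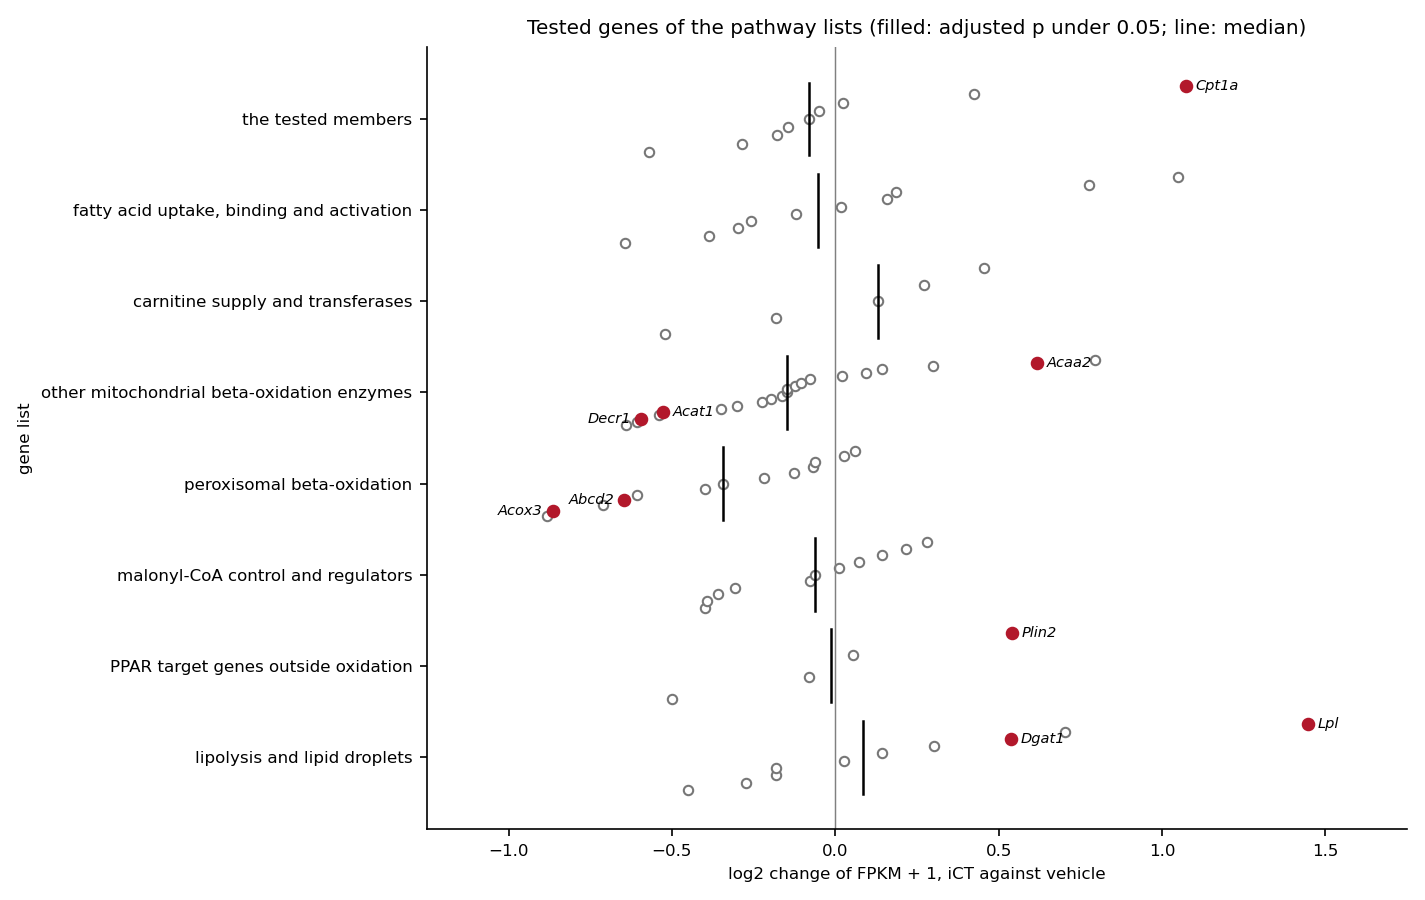
Log2 difference of FPKM + 1 of iCT from vehicle (horizontal axis) for every tested gene of the 7 pathway lists and the tested members (vertical axis, a row per list). Filled points passed an adjusted p of 0.05 and are named, and lines are list medians. Called were Cpt1a among the members, Acaa2, Acat1 and Decr1 among the other mitochondrial enzymes, and the lower Acox3 and Abcd2 in the peroxisome. Plin2, Dgat1 and Lpl were also called, but Lpl passed the filter only through the iCT mice.

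The genes most like each of Cd36, Cpt1a and Acadm over the 12 libraries were found by the root mean square difference of their profiles, each centred and scaled to its SD. For Cpt1a these were Plin2 at 0.37 SD, Aggf1 at 0.39 and Adcy3 at 0.41, where the median gene differed by 1.44 SD. Without iCT mouse 1 the nearest were Arc at 0.45, Adcy3 at 0.45 and Plin2 at 0.47 SD, and Aggf1 was in place 5 of 11018. For Acadm the nearest were Mgea5 at 0.26, Gm1110 at 0.28 and Cyb5rl at 0.28 SD, where the median gene differed by 1.17. Gm1110 and Cyb5rl were listed at 0 in iCT mouse 1, and without that mouse these genes were in places 21, 38 and 28, behind Elf1, Fam208b and Ubqln1. For Cd36, with its values near 0, they were Zfp53 at 0.49, 1 locus of Gm5643 at 0.50 and Cox20 at 0.50 SD, and without iCT mouse 1 Creb1, Nqo2 and Ywhaz at 0.49 to 0.51. These measures describe 12 libraries that fall into 3 groups and differ in depth, and carry no test.

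**Figure D4:**
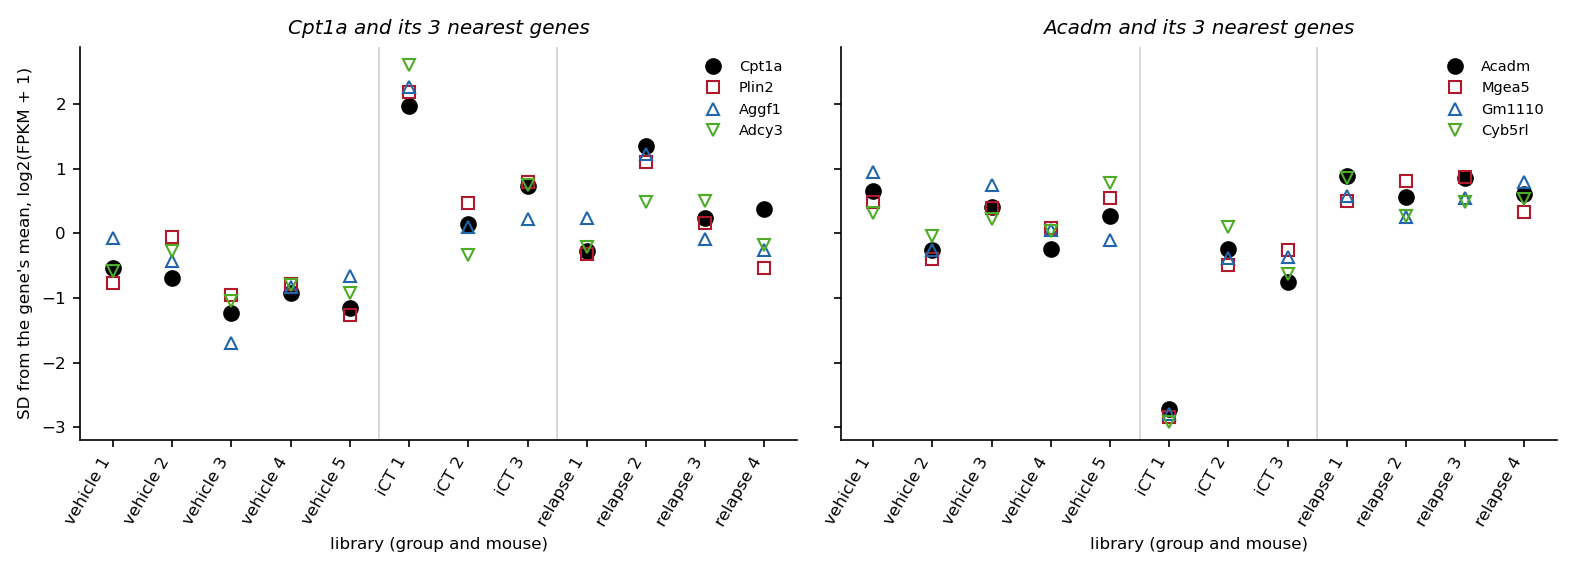
Profiles of Cpt1a and Acadm with their 3 nearest genes over the 12 libraries (horizontal axis, ordered by group), as log2(FPKM + 1) centred on its mean and divided by its SD (vertical axis). Each symbol is a gene; all 4 genes of the Cpt1a panel have their highest value, and all 4 of the Acadm panel their lowest, in iCT mouse 1.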

How the data were processed

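RNA from GFP-sorted leukaemia cells was sequenced, 1 library per mouse, and groups were taken from the sample titles. The authors deposited FPKM values with interval bounds, made by STAR alignment and Cufflinks, as named in the submitters' processing notes. Versions, gene models, strandedness and handling of multi-mapped reads: not given in the sources used here. FPKM moves with transcript length, library total and any few abundant genes. The build in those notes is mm9. Of 23030 single-locus symbols, 99.4% overlapped the GRCm38 gene of that name, so GRCm38 is used. Implied fragments were the square of 2 FPKM over the upper interval width, and cover counting error only. Between 44.7% and 47.2% of low values (up to 20 implied fragments) were whole within 0.02, so no count test was run.

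The 11019 genes that reached an FPKM of 1 in 3 or more libraries were fitted by limma 3.58.1 (R 4.3.3) on log2(FPKM + 1), all 12 libraries in 1 model with a variance trend. Benjamini-Hochberg adjustment covered all tested genes, with a threshold of 0.05. Spreads are SDs over mice. The fit was tested on simulated data with the same spread in every group and no shallow library. That test therefore does not cover the wider spread of iCT or the low depth of iCT mouse 1. Alternatives were other pseudocounts, filters, scalings and weights (statmod 1.5.0), no variance trend, fits of just the compared groups, a replicate block and omission of each library. The profile search without iCT mouse 1 was added after the data were seen. Named genes were all members, list genes past the threshold in any comparison (otherwise the 2 with the smallest p in iCT against vehicle) and the 3 nearest profiles. The members and lists were chosen with earlier results of these data known.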

Additional observations from a re-analysis of the deposited data

Results flagged for a closer look

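In the 20 groups of 4 or 5 mice checked, a mouse stood far from the rest of its group in 3, where chance gives about 1 in 20. Acadl in vehicle mouse 2 was 38.7 FPKM, below the 44.3 to 46.0 of the other vehicle mice. In relapse mouse 4 Acadvl was 37.2 FPKM, above the 26.3 to 27.8 of the other relapse mice. Etfdh in the same mouse was 21 FPKM, where the others were 17.9 to 18.2.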

How the results depend on the processing

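Of 621 recomputed differences of members, 572 kept their direction and side of the threshold. Most were uncalled in the main fit, and omitting a mouse outside a comparison cannot change its difference. Much of this count was therefore fixed in advance and is no measure of stability. Causes were not tested. In iCT against vehicle, 1 member was called, 0 with array weights or the replicate block, and 1 to 2 over the omission of each library (2 without iCT mouse 2). In relapse against vehicle, 0 were called, and 1 with array weights or only the groups compared. In relapse against iCT, 1 was called, 0 after median-of-ratios scaling, with only the groups compared or with the replicate block, and 0 to 1 over omissions. Under the block, Cpt1a in iCT had 1.03 (adjusted p = 0.117) and Acadm in relapse against iCT 0.83 (adjusted p = 0.0992). The labels do not say whether equal mouse numbers match mice across groups. The 10 same-numbered pairs correlated at -0.09 to 0.10 and the 37 other pairs at -0.12 to 0.15. With so few mice these values cannot settle whether a number marks a shared batch.

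Called genes in iCT against vehicle were 1060, but 457 with array weights, 341 with only the groups compared, 197 with the block and 569 to 2722 over omissions. In relapse against vehicle they were 0, but 971, 595, 0 and 0 to 5, with 10 under precision weights and 1 with no filter. In relapse against iCT they were 1071, but 603, 236, 372 and 529 to 1855.

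Uncalled differences changed sign as follows. In iCT against vehicle, array weights gave Slc25a20 0.44, Acadvl 0.0079, Hadhb 0.011 and Etfdh -0.0019, precision weights gave Slc25a20 0.42, and the block gave Hadha 0.013. Omissions there spanned -0.63 to 0.58 for Slc25a20, -0.36 to 0.073 for Acadl, -0.14 to 0.013 for Acadvl, -0.53 to 0.11 for Hadhb, -0.12 to 0.0024 for Hadha, -0.014 to 0.061 for Etfdh and -0.21 to 0.020 for Ucp2. In relapse against vehicle, median-of-ratios scaling gave Slc25a20 -0.043, Acadl -0.045 and Acaa2 -0.058, quantile normalization Slc25a20 -0.044, array weights Acadl -0.030 and the block Acaa2 -0.0068. Omissions spanned -0.055 to 0.093 for Slc25a20, -0.046 to 0.11 for Acadl and -0.086 to 0.097 for Acaa2. In relapse against iCT, Cpt2 was -0.050 with median-of-ratios scaling, -0.073 with quantile normalization and -0.044 with the block. Array weights gave Slc25a20 -0.34 and Hadhb -0.16, and precision weights -0.39 and -0.015. Omissions spanned -0.56 to 0.66 for Slc25a20, -0.046 to 0.39 for Acadl, -0.24 to 0.40 for Hadhb, -0.086 to 0.51 for Fabp5, -0.32 to 0.012 for Crat, -0.057 to 0.15 for Cpt2 and -0.15 to 0.018 for Acadvl. Depth limits Cd36 in every library and the other members in iCT mouse 1, most of all Slc25a20, Acadm, Cpt2 and Etfdh (3 to 13 implied fragments).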
